A study of Homo sapiens with 3 samples.

Results

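Secreted and membrane proteins are folded in the endoplasmic reticulum (ER), where chaperones such as BiP hold unfolded chains, disulfide isomerases form and correct disulfide bonds, and lectin chaperones bind glycoproteins. Chains that fail to fold are passed back to the cytosol and degraded. When unfolded protein accumulates, the sensors IRE1, PERK and ATF6 start the unfolded protein response, in which the transcription factors XBP1, ATF4 and ATF6 raise the expression of chaperones and degradation factors. This group of 37 genes was taken from a list fixed by name, out of 61193 annotated genes, and all 37 were found in the deposited tables. The list was chosen with earlier results of these data known. By role, it holds 12 chaperones and cochaperones, 4 protein disulfide isomerases, 9 degradation factors, 8 stress sensors and transcription factors, and 4 genes of translocation into the ER. Their expression was measured by 3′ end RNA-seq in 3 replicates of HEK293T, a human embryonic kidney line with the SV40 large T antigen, grown without any treatment and collected at 1 time point after seeding. The paper describes the replicates as independent and biological, and the labels list the material as genomic DNA although their protocol describes RNA. With 1 condition there is no comparison between groups, so values are given with the SD over the replicates and without a test.

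The libraries held 7019253, 6262175 and 8521624 counts, that is, reads assigned to transcripts. A level is given in transcripts per 1000000 (TPM), a measure corrected for transcript length, here summed over the transcripts of a gene. Mitochondrial genes took 22.8% of all TPM in replicate 1, 15.4% in replicate 2 and 44.2% in replicate 3, which lowers the TPM of all other genes in replicate 3. Of the genes usually detected in HEK293T, PAX2 had 42 to 59 counts, KRT8 8 to 27 and LHX1 4 to 6, while VIM had 0 to 6 and KRT18 and NEFM had 0. Of genes that mark other cell types, PTPRC, CD3E, HBB and ALB had 0 counts, but COL1A1 had 632 to 1129 and COL3A1 22 to 100.

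The unfolded protein response acts on promoters through elements such as the ER stress response element (ERSE), the letters CCAAT and CCACG separated by 9 bases of any kind. NF-Y binds at CCAAT and ATF6 at CCACG. RefSeq promoters (GRCh38.p14, 250 bases before to 50 after the start) were matched for 34 of the 37 genes, all but DERL1, DERL3 and PDIA3. An ERSE on either strand was found in 7 of the 34 promoters (20.6%), compared with 0.124% of the promoters of protein-coding genes and 0.0806% of all 27305 promoters. The sites are shown because they are a sequence feature that 7 of these genes share. The list holds genes of the response that acts through this element, so the higher share is no independent result. Capitals mark the CCAAT and CCACG letters, and each site is read 5′ to 3′ on the strand that carries them:
HSPA5: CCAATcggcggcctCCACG
XBP1: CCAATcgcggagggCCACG
HSP90B1 upstream site: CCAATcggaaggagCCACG
HSP90B1 downstream site: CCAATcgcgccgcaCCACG
CALR: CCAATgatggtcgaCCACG
CANX: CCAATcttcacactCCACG
CRELD2: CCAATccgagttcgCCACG
SERP1: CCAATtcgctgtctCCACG

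The HSPA5 site lies at chr9:125241391-125241409 on the minus strand and begins 66 bases before the start used for its RefSeq promoter. The XBP1 site lies at chr22:28800603-28800621 on the minus strand and begins 52 bases before the start used for its promoter. For both genes this start differs from the gene start in GENCODE v44. The HSP90B1 sites lie at chr12:103930216-103930234 on the plus strand and chr12:103930321-103930339 on the minus strand. The others lie at chr19:12938384-12938402 (minus strand, CALR), chr5:179698778-179698796 (plus, CANX), chr22:49918554-49918572 (minus, CRELD2) and chr3:150546710-150546728 (plus, SERP1). A related element, ERSE-II, the letters ATTGG and CCACG separated by 1 base, was found in HERPUD1, HYOU1 and SDF2L1, and in 0.0783% of protein-coding promoters. These sites are shown because no ERSE was found in the promoters of the 3 genes:
HERPUD1: ATTGGgCCACG
SDF2L1: ATTGGtCCACG
HYOU1 upstream and downstream sites: ATTGGaCCACG

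The HERPUD1 site lies at chr16:56932025-56932035 (plus strand), the SDF2L1 site at chr22:21642114-21642124 (minus), and the HYOU1 sites at chr11:119057380-119057390 and chr11:119057274-119057284 (both plus). The unfolded protein response element TGACGTGG, bound by XBP1, was found in 2 promoters, of DNAJC10 and HYOU1, and in 0.848% of protein-coding promoters. Its core TGACGT, which is contained in it, was found in 8 of the 34 promoters and in 9.79% of protein-coding promoters. The letters CCAAT alone were in 27 of the 34 promoters (79.4%), compared with 36.6%. The measured levels of the 7 genes with an ERSE ran from 0 TPM for CALR to 1030.4 TPM for HSPA5, with a median of 8.63 TPM, and 5 of them reached 1 TPM. This median is the value of SERP1, whose counts all lay on transcripts without a defined coding sequence, as described below. The 27 genes without the element had a median of 1.92 TPM, and 16 reached 1 TPM. Only 1 of the 7 and 10 of the 27 had a 3′ end in which no other listed transcript lies, a property that moved with the counts, as described below, and its part in these levels was not tested.

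A mean of at least 1 TPM, taken here as expressed, was reached by 23 of the 37 genes, or 62.2%. The share was 38.2% among protein-coding genes and 21.7% among all genes. The third quartile of the expressed genes was 24.1 TPM, and 8 of the 37 genes lay at or above it (high), as did 12.5% of the protein-coding genes. Another 11 lay between the quartiles (medium), 4 lay at or below the first quartile of 2.399 TPM (low) and 14 were under 1 TPM. The median over the 37 genes was 2.46 TPM, with 2.44, 2.65 and 2.60 TPM in replicates 1, 2 and 3. Over all protein-coding genes, expressed or not, the median was 0.195 TPM. Over the 23 expressed members the median was 11.8 TPM, compared with 6.55 TPM for all expressed genes and 10.5 TPM for expressed protein-coding genes. Placed among the expressed genes, with the 14 members under 1 TPM set at percentile 0, the median of all 37 lay at percentile 25.6. The 37 genes held 0.227% ± 0.0671 (SD, n = 3) of all TPM, with 0.261%, 0.269% and 0.149% in replicates 1, 2 and 3. Most of this lay on HSPA5 and SDF2L1, which together made up 84.0%, 83.4% and 74.3% of the TPM of the group.

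**Figure D1:**
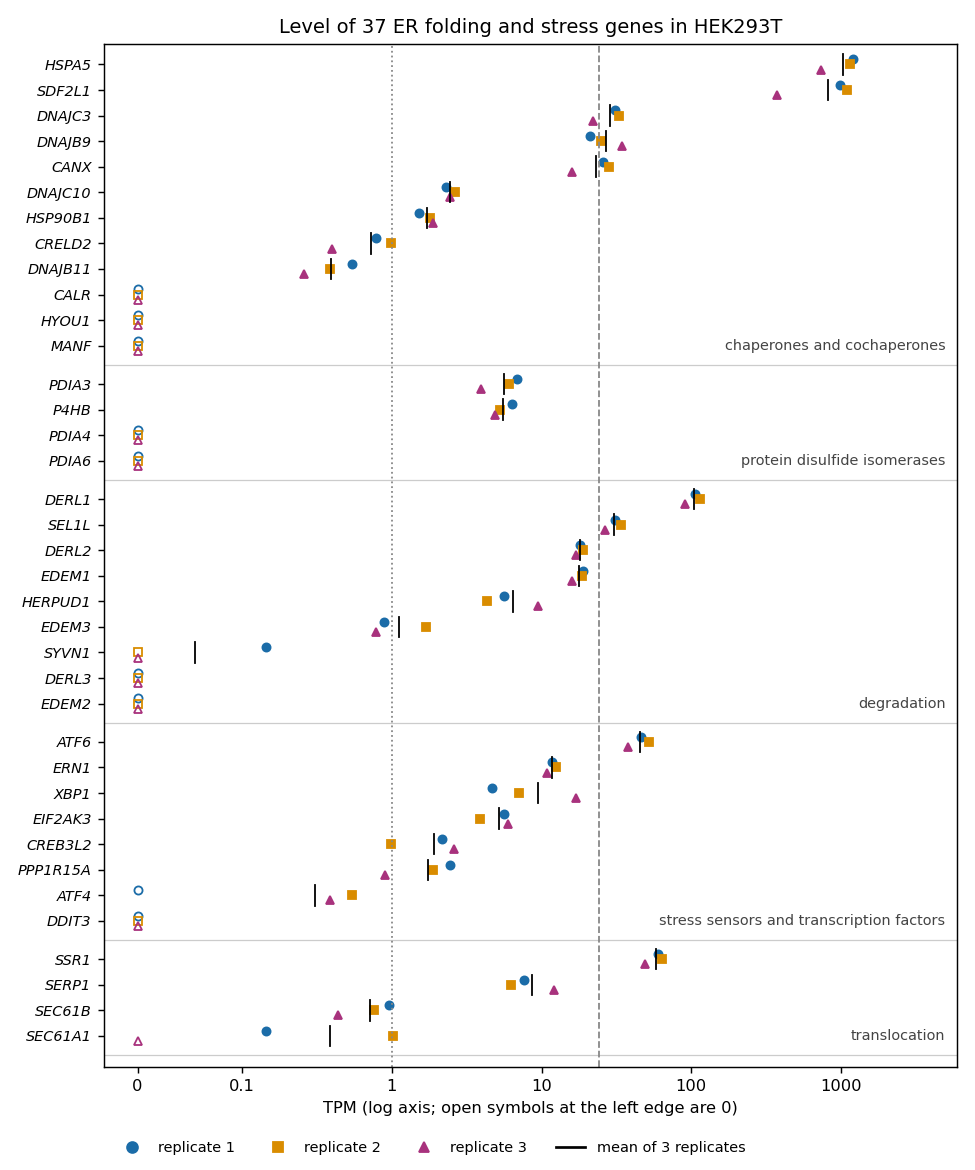
TPM of each of the 37 genes (log axis) in replicates 1, 2 and 3, grouped by role, with a black bar at the mean. The dotted line is at 1 TPM and the dashed line at the third quartile of expressed genes, 24.1 TPM. HSPA5 and SDF2L1 lie far to the right of all others, and 8 genes lie at 0 in every replicate.

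Among the chaperones, HSPA5, which encodes BiP, the main Hsp70 chaperone of the ER lumen, had 1204, 1153 and 734 TPM in replicates 1, 2 and 3, a mean of 1030.4 ± 258 TPM (SD, n = 3). It was above 99.2% of the expressed genes. The gene (ENSG00000044574; GRCh38 chromosome 9, 125234853 to 125241382, minus strand) has a single listed transcript, which took 21428, 17334 and 19187 counts. SDF2L1, a small luminal protein that acts with BiP and its J-protein partners, had 991, 1092 and 375 TPM, a mean of 819 ± 388 TPM. It lies on chromosome 22 from 21642302 to 21644299, and its canonical transcript has 825 bases, compared with 3921 bases for HSPA5. Both genes were lowest in replicate 3. HSPA5 was above SDF2L1 in every replicate, by 1.22, 1.06 and 1.96 times in TPM, but the ranges of the genes overlapped. In counts, which are not divided by length, HSPA5 was 5.78, 5.02 and 9.30 times SDF2L1.

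Among the J-domain cochaperones, which pass clients to BiP and start its ATP hydrolysis, levels ran from high to under 1 TPM. DNAJC3, also known as an inhibitor of the PERK kinase, had 30.9, 33.0 and 22.0 TPM, and DNAJB9 had 21.2, 24.9 and 34.4 TPM. Both were in the high category by their means, 28.6 ± 5.85 and 26.8 ± 6.82 TPM, and their ranges overlapped. DNAJC10, a J protein with thioredoxin domains that reduces disulfide bonds, had 2.46 ± 0.184 TPM from 124 to 153 counts. Its canonical transcript is 20144 bases long, so the gene was 19th of the 37 by TPM but 13th by counts per 1000000 of the library (CPM), which are not divided by length. DNAJB11 had 6 to 10 counts and 0.394 ± 0.142 TPM. These genes were therefore spread over the high, medium and unexpressed categories.

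CANX, the membrane-bound lectin chaperone calnexin, had 25.7, 28.0 and 15.9 TPM, a mean of 23.2 ± 6.47 TPM, just under the third quartile. CALR, its soluble homologue calreticulin, had 0 counts in every replicate. HSP90B1, the ER member of the Hsp90 family (GRP94), had only 5, 5 and 9 counts and 1.73 ± 0.191 TPM, with 0 of 19 counts on its canonical transcript. CRELD2 had 7 to 9 counts and 0.726 ± 0.301 TPM. HYOU1, a large Hsp70-like exchange factor of BiP, and MANF, a secreted factor that also binds BiP, had 0 counts in every replicate. A count of 0 allows up to 3 counts per library, which equal 0.427, 0.479 and 0.352 CPM in replicates 1, 2 and 3. This limit covers counting error only, and how reads on several transcripts were treated is not given in the sources used here.

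Of the 4 disulfide isomerases, PDIA3 and P4HB were expressed and none was in the high category. PDIA3 had 6.83, 6.10 and 3.93 TPM (5.62 ± 1.50) and P4HB, the classical protein disulfide isomerase, had 6.35, 5.27 and 4.86 TPM (5.495 ± 0.770). Their ranges overlapped and both were in the medium category. All 90 counts of P4HB lay on retained intron transcripts, as described below, so its value is no measure of its coding messenger RNA. PDIA4 and PDIA6 had 0 counts in every replicate.

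Among the degradation factors, DERL1 and SEL1L were highest. DERL1, a membrane protein of the retrotranslocation machinery, had 106, 114 and 91.0 TPM, a mean of 104 ± 11.8 TPM, the third highest of the group. In TPM it did not overlap with SDF2L1 above it or with SSR1 below it. In CPM the order with SSR1 was turned round, with 221, 225 and 229 for DERL1 and 357, 351 and 345 for SSR1, and DERL1 was 5th. SEL1L, the adaptor of the ubiquitin ligase HRD1, had 31.05, 33.98 and 26.56 TPM (30.5 ± 3.74). SYVN1, which encodes HRD1 itself, had 3 counts in replicate 1 and 0 in the others. DERL2 had 18.03 ± 0.932 TPM and EDEM1, a mannosidase-like protein that marks glycoproteins for disposal, had 17.8 ± 1.68 TPM, with overlapping ranges. The related EDEM3 had 0.885, 1.69 and 0.781 TPM from 12 to 16 counts, and EDEM2 and DERL3 had 0 counts in every replicate. HERPUD1, a stress-induced scaffold of the ligase, had 5.58, 4.32 and 9.50 TPM (6.46 ± 2.70) and was highest in replicate 3.

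Of the sensors, ATF6, a membrane-bound transcription factor released by proteolysis, had 46.1, 52.5 and 37.8 TPM (45.5 ± 7.38) and was the fifth highest gene of the group. ERN1, which encodes the kinase and RNase IRE1, had 11.8, 12.6 and 10.9 TPM (11.8 ± 0.819). EIF2AK3, which encodes the kinase PERK, had 5.66, 3.89 and 5.96 TPM (5.17 ± 1.12). The levels of the 3 sensors did not overlap with each other in any replicate. All counts of EIF2AK3 lay on a transcript without a defined coding sequence, as described below, so this order does not rank the PERK messenger RNA. Among the transcription factors, XBP1 had 4.66, 7.02 and 16.9 TPM (9.52 ± 6.47) from 11, 14 and 60 counts, the widest relative spread of the expressed members, with a coefficient of variation (SD over mean) of 68.0%. Without replicate 3 its mean was 5.84 TPM. CREB3L2, a membrane-bound factor related to ATF6, had 2.15, 0.995 and 2.60 TPM. ATF4, which acts below PERK, had 0, 4 and 5 counts, and DDIT3, the factor CHOP, had 0 counts in every replicate. PPP1R15A, a target of this branch that brings a phosphatase to the initiation factor and so restores translation, had 2.44, 1.89 and 0.893 TPM from 26, 17 and 14 counts. The counts assigned to ATF4 and DDIT3 were thus at or close to the limit of detection in each library. The canonical transcript of ATF4 is not listed, and the 3′ end of DDIT3 is shared throughout, as described below. The part of this in their counts was not tested.

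Among the translocation genes, SSR1, a subunit of the translocon-associated complex, had 59.9, 63.7 and 49.5 TPM (57.7 ± 7.39). SERP1, a stress-associated partner of the translocon, had 7.61, 6.21 and 12.1 TPM (8.63 ± 3.06), with 0 of 215 counts on its canonical transcript. SEC61A1 and SEC61B, which encode the pore and a small subunit of the channel itself, had 2, 3 and 0 counts and 3, 2 and 2 counts. By role, the median level was 2.09 TPM for chaperones and cochaperones, 2.75 TPM for disulfide isomerases, 6.46 TPM for degradation, 3.54 TPM for sensors and transcription factors and 4.67 TPM for translocation. Apart from degradation, each median rests in part or whole on genes with 0 counts on the canonical transcript. These genes are HSP90B1 for chaperones, P4HB for isomerases, EIF2AK3 and CREB3L2 for sensors and factors, and SERP1 and SEC61B for translocation. In the order of mean TPM, 29 genes had a mean above 0 and formed 28 neighbouring pairs. In 23 of these pairs the ranges of the replicates overlapped. The 5 pairs without overlap were SDF2L1 over DERL1, DERL1 over SSR1, ATF6 over SEL1L, EDEM1 over ERN1 and EIF2AK3 over DNAJC10. In CPM the second and the last of these 5 turned round in every replicate, with 4.42, 2.87 and 5.63 for EIF2AK3 and 19.9, 24.4 and 14.6 for DNAJC10. Compared within each library, the upper gene of a pair was higher in TPM in all 3 replicates in 12 of the 28 pairs, of which 7 had overlapping ranges, among them HSPA5 over SDF2L1, SSR1 over ATF6 and SEL1L over DNAJC3. Of these 12 pairs, 7 kept their order in CPM in every replicate and 4 turned round in every replicate.

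In a 3′ end library reads come from the end of the transcript, and they were counted on single transcripts. Each gene was therefore described by whether its 3′ end lies in its own canonical transcript alone. For 36 of the 37 genes the canonical transcript was listed, the exception being ATF4. In 13 of them no base of the last 300 exonic bases lies in another listed transcript on the strand, and all 13 were expressed, 7 of them in the high category. Of the 13, CREB3L2 held 0 counts on the canonical transcript to which this end belongs. Among protein-coding genes with such an end, 53.4% were expressed and 24.5% were high. In the 8 genes whose end is own only in part, 4 were expressed and 1, DNAJB9, was high, compared with 33.6% and 7.62% of such protein-coding genes. In the 15 genes with no base of this end to themselves, 6 were expressed and 0 were high, compared with 26.0% and 3.69%. The mean count ranged from 24.3 to 19316 (median 770 counts) for the members with an own end, and from 0 to 139 (median 6.33 counts) for those with a shared end.
The 8 genes with 0 counts in every replicate all had shared bases at this end. Among protein-coding genes, 26.4% of those with an own end had 0 counts. The share was 37.7% for an end own in part and 46.0% for a shared end. CALR, DDIT3, DERL3 and EDEM2 share it throughout, and HYOU1, PDIA4, PDIA6 and MANF have 1.33%, 2.00%, 0.667% and 17.7% of it to themselves. Genes other than the member overlap this end for DDIT3 (MARS1), DERL3 (SMARCB1), PDIA6 (ATP6V1C2), SYVN1 (MRPL49) and PDIA3 (ELL3, and a gene without symbol), on the same or the opposite strand. Genes without a symbol overlap it for CALR (ENSG00000267458), HYOU1 (ENSG00000255114) and P4HB (ENSG00000262831). How far shared ends set these values was not tested.

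**Figure D2:**
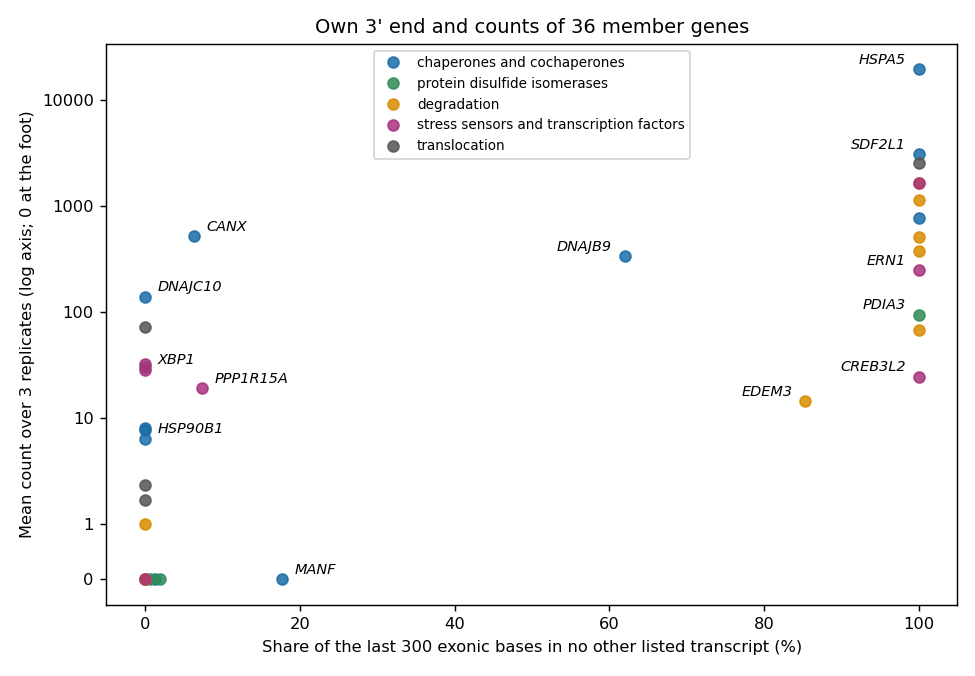
Mean count over 3 replicates (log axis, 0 at the foot) against the share of the last 300 exonic bases that lies in no other listed transcript, for 36 genes coloured by role. All genes at 100% hold at least 24.3 counts, whereas genes at 0% range from 0 to 139 counts. The gene at 24.3, CREB3L2, holds 0 counts on its canonical transcript.

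The annotation used here is GENCODE v44, which is not the release of the deposited tables. The deposited length equalled the annotated one for 94.0% of all matched transcripts, but for only 211 of 285 transcripts of these genes (74.0%). When only transcripts of equal length were allowed to share a base, a choice made after seeing the data, 18 genes had an end of their own and 17 of them were expressed. The exception was CALR, at 0 counts. Of the 17, CREB3L2 and P4HB held 0 counts on their canonical transcripts. CANX, P4HB, DNAJC10, PPP1R15A and CALR were the genes added by this rule. With overlaps on either strand, 12 genes had an own end, and PDIA3 was the gene lost.

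The transcripts that held the counts differed in kind. Of the 29 genes with any count, 16 had most of it on the canonical transcript and 13 on another. In the 11 genes with the highest means, from HSPA5 to EDEM1, between 98.8% and 100% of the counts lay on the canonical transcript. ERN1 had 72.9% of its counts there and HERPUD1 65.0%. For XBP1, 0 of 85 counts fell on the canonical transcript and 97.6% fell on ENST00000482720.1, a transcript of 520 bases annotated as a retained intron, whose 3′ end lies 4346 bases before that of the canonical transcript. The XBP1 values above are thus no measure of its coding messenger RNA, and the forms spliced and not spliced by IRE1 cannot be told apart from them. For EIF2AK3 all 97 counts fell on ENST00000668866.1, which has no defined coding sequence and ends 133436 bases before the canonical end. For SERP1 97.2% fell on a transcript without defined coding sequence that ends 23798 bases before the canonical end, and the rest on another such transcript. The EIF2AK3 and SERP1 values above are thus no measure of their coding messenger RNA either. For CREB3L2 all 73 counts fell on ENST00000456390.5, a shorter coding transcript that ends 9288 bases before the canonical end. Most counts of P4HB, HSP90B1, EDEM3, CRELD2, DNAJB11 and SYVN1 also fell on retained intron transcripts, which led in 7 of the 29 genes. For P4HB, DNAJB11 and SYVN1 all counts did, so their values are no measure of coding messenger RNA either. HSP90B1 and CRELD2 had 0 counts on their canonical transcripts. XBP1, EIF2AK3 and CREB3L2 thus had 0 counts on their canonical transcripts, while ATF6, ERN1 and PPP1R15A had most or all of theirs there.

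**Figure D3:**
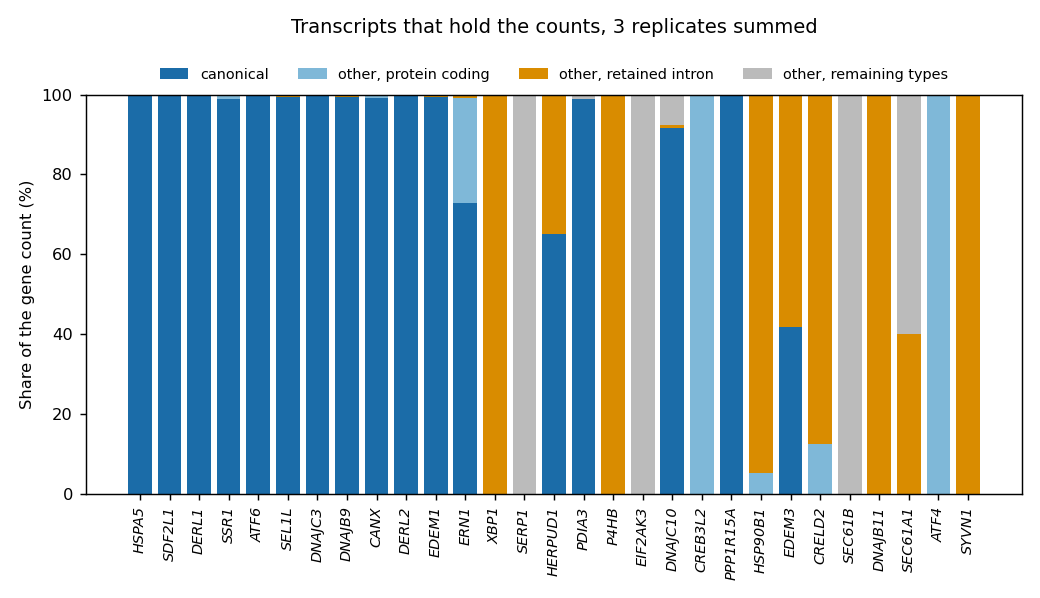
Share of the count of each gene, in percent and summed over 3 replicates, on its canonical transcript, on other coding transcripts, on retained intron transcripts and on remaining types, for the 29 genes with a count in order of mean TPM. The first 11 genes have 98.8% or more on the canonical transcript and ERN1 has 72.9%. From XBP1 onwards the canonical transcript leads only in HERPUD1, PDIA3, DNAJC10 and PPP1R15A.

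Several of these genes have pseudogene copies, and counts on a gene and its copy are uncertain, since reads may match both. Of 12 such copies, 6 held at least 10 counts in every replicate. HSP90B2P, on chromosome 15 from 99257632 to 99260015, had 248, 307 and 221 counts, against 5, 5 and 9 for HSP90B1. HSP90B3P had 22, 42 and 17 counts. ATF4P3, on chromosome 17 from 76225751 to 76226806, had 174, 71 and 93 counts, against 0, 4 and 5 for ATF4, and ATF4P4 had 24, 13 and 26. In all 3 replicates these copies were above their parent genes. PDIA3P1, annotated as transcribed, had 113, 121 and 83 counts and did not separate from PDIA3 with 114, 86 and 81. HSPA5P1 had 17 to 24 counts and lay far below HSPA5. Of the 31-base words of each copy, 20.4% in HSP90B2P, 12.6% in HSP90B3P, 49.4% in ATF4P3, 25.2% in ATF4P4, 28.2% in PDIA3P1 and 22.2% in HSPA5P1 also occur in listed transcripts of the parent. Of words of 75 bases, the length of a read, these shares were 0.823%, 0%, 12.1%, 4.31%, 13.4% and 2.12%. Whether the counts came from the copies or from their parents was not tested.

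**Figure D4:**
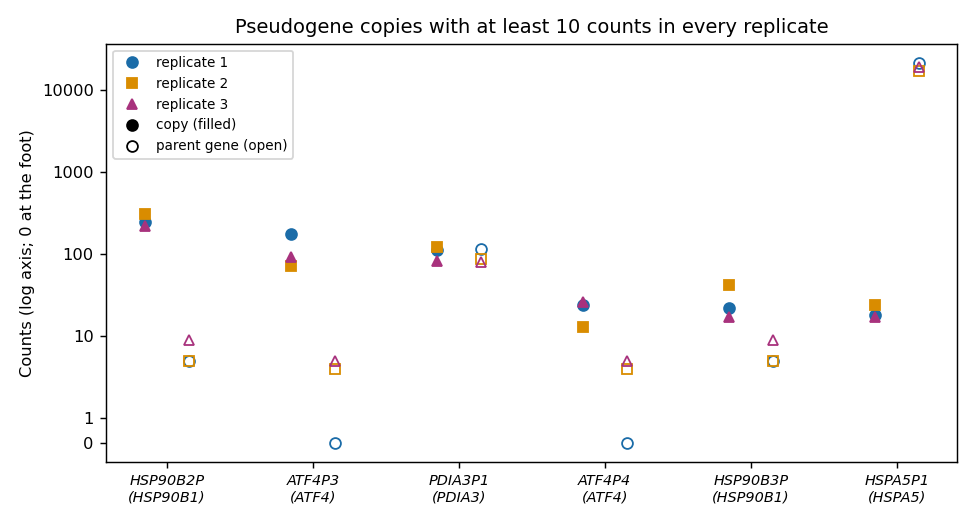
Counts (log axis, 0 at the foot) of 6 pseudogene copies, filled, and of their parent genes, open, in replicates 1, 2 and 3. The copies of HSP90B1 and ATF4 lie above the parent in every replicate, PDIA3P1 is level with PDIA3, and HSPA5P1 lies below HSPA5.

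The replicates differed in a way that was not shared by all members. In TPM, 15 of the 23 expressed members were lowest in replicate 3, as were 58.6% of all expressed genes, and the median ratio of replicate 3 to the mean of the others was 0.837 for the members and 0.747 for all expressed genes. Of the 23 members, 7 were highest in replicate 3, compared with 19.8% of the expressed genes. These were DNAJB9, XBP1, SERP1, HERPUD1, EIF2AK3, CREB3L2 and HSP90B1, of which all but DNAJB9 and HERPUD1 held 0 counts on their canonical transcripts. Among the 13 members with a mean of at least 100 counts, 1, DNAJB9, was highest in replicate 3 in TPM, compared with 8.76% of such genes. In CPM, in which the mitochondrial share weighs less, 4 members were more than 1.5 times both other replicates in replicate 3, compared with 11.2% of the expressed genes. Replicate 3 was the highest in 11 members in CPM and in 16 with mitochondrial genes left out of the TPM, compared with 33.1% and 46.1% of the expressed genes, so the count in this direction rests on the scale. It was the lowest in CPM in 9 members, against 44.7%. The 4 members were XBP1 with 1.57, 2.24 and 7.04, HERPUD1 with 6.13, 6.07 and 13.96, SERP1 with 7.69, 6.07 and 14.4, and DNAJB9 with 32.1, 36.7 and 63.7 CPM. Of these, XBP1 and SERP1 held 0 counts on their canonical transcripts. The most abundant members, HSPA5 and SDF2L1, did not share the rise in replicate 3. HSPA5 had 3053, 2768 and 2252 CPM and SDF2L1 had 529, 552 and 242, both lowest in replicate 3. SDF2L1 was one of 6 expressed members whose highest TPM was more than 2 times the lowest, with XBP1, HERPUD1, CREB3L2, PPP1R15A and EDEM3, compared with 41.5% of the expressed genes. Of the 13 members with a mean of at least 100 counts, SDF2L1 was the only member to do so, compared with 19.1% of such genes. With mitochondrial genes left out of the totals, HSPA5 had 1559, 1363 and 1316 TPM and SDF2L1 had 1283, 1291 and 673 TPM, while XBP1 had 6.04, 8.30 and 30.2 TPM. These 13 members had a median coefficient of variation of 12.8%, against 23.6% for all 4865 genes with such counts. Counting noise alone would give between 0.720% for HSPA5 and 8.48% for DNAJC10 in these 13 genes. The spread in HSPA5 was 25.1% in TPM and 15.1% in CPM, in SDF2L1 47.4% and 39.1%, and in DNAJB9 25.4% and 38.7%, each well above the counting noise of 0.720%, 1.80% and 5.48%. Why replicate 3 differed was not tested.

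**Figure D5:**
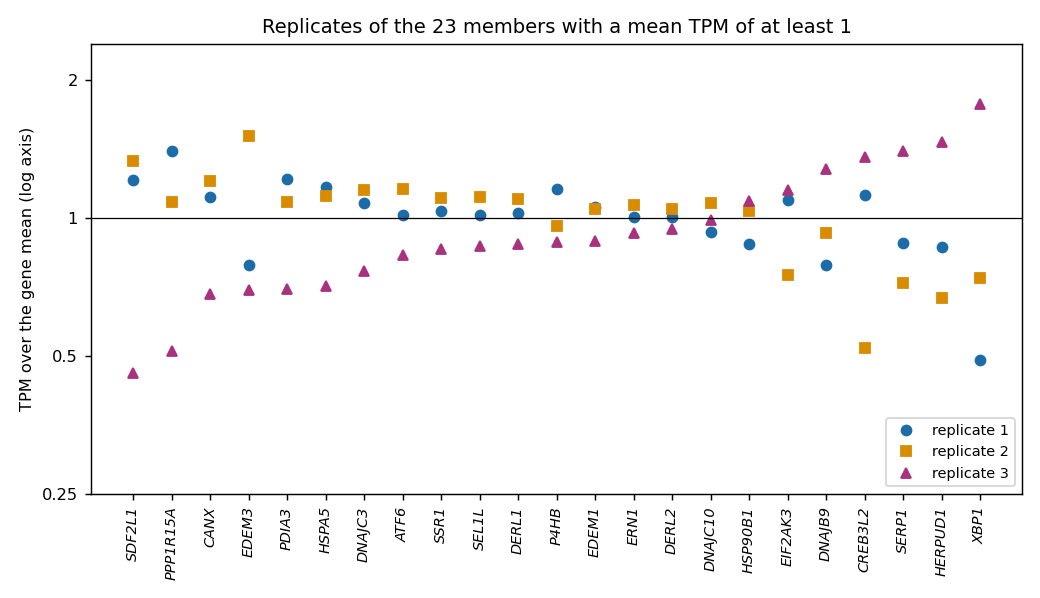
TPM in replicates 1, 2 and 3 over the mean of the gene (log axis) for the 23 genes with a mean of at least 1 TPM, ordered by the ratio of replicate 3 to the others. Replicate 3 is the lowest for 15 genes, with SDF2L1 at the far left, and the highest for 7, with XBP1 at the far right.

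Other genes of ER folding and stress, from lists written from general knowledge, were measured beside the members. Of 89 symbols, 88 were matched, and 58 of these reached 1 TPM, with 33 in the high category and a median of 7.06 TPM. Among protein-coding genes 38.2% were expressed and 12.5% were high, which is also the background for each list below. Of 18 further folding genes, 12 were expressed, with DNAJC1, another J protein, highest at 243 ± 32.2 TPM and CDNF, the homologue of MANF, at 0 counts. Of 13 genes of glycan transfer and trimming, 7 were expressed, with RPN1, a subunit of the oligosaccharyltransferase, at 258 ± 39.5 TPM, and MOGS, DAD1 and DDOST at 0 counts. Of 15 further degradation genes, 11 were expressed, with VCP, the ATPase that extracts proteins from the membrane, at 420.1 ± 132 TPM, and OS9, AUP1 and HERPUD2 at 0 counts. Of 16 further translocation genes, 10 were expressed, with SRPRB, a subunit of the receptor for the signal recognition particle, at 304 ± 76.6 TPM, and SEC61A2 at 0 counts. Of 26 further stress genes, 18 were expressed, with RTCB, the ligase that joins the spliced XBP1 RNA, at 519 ± 149 TPM, and CREB3 and ERN2 at 0 counts. Over all lists, 6 of the 58 expressed genes exceeded 1.5 times both other replicates in replicate 3 in CPM, beside 11.2% of all expressed genes. These were 0 of 12 folding genes, 0 of 7 glycan genes, 1 of 11 degradation genes (UBXN4), 1 of 10 translocation genes (SEC11A) and 4 of 18 stress genes (CHAC1, ASNS, CREB3L1 and NFYB). CREB3L1 had only 3, 2 and 9 counts and NFYB 7, 0 and 15. CHAC1, a target of ATF4 that was singled out after its values were seen, had 638, 1126 and 3031 counts. Zero counts thus occurred in every one of these lists beside genes in the high category.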

How the data were processed

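QuantSeq 3′ libraries of 3 HEK293T replicates were read in single reads of 75 bases. Per the labels, the reads were handled with Trimmomatic 0.38.0, HISAT2 2.2.1 and featureCounts 2.2.1 on hg38. How reads on several transcripts were treated and whether strand was used is not given in the sources used here. The counts deposited by the authors are raw whole numbers per transcript. The TPM deposited by the authors was recomputed from the counts and the deposited transcript lengths, adding to 1000000 per library, and no value differed by more than 1.75e-10. Transcript identifiers without version were matched to GENCODE v44 (223558 of 247541, holding all but 0.158% to 0.166% of the counts), and counts and TPM were summed per gene. No test was made, since there is 1 condition. The members and lists were chosen with earlier results of these data known. Full values are given for members in the high category, at or under 3 counts in every replicate, or with a highest TPM over 2 times the lowest, and for all sensors and transcription factors. Of each further list, the genes with the highest and lowest mean are named, and of pseudogene copies those with at least 10 counts in every replicate. Alternatives were other scales (edgeR 4.0.16 TMM, DESeq2 1.42.0 median of ratios), thresholds, single transcripts and replicates left out. Python 3.11.15, numpy 2.4.6 and pandas 2.3.3 were used. The scripts for levels and motifs were tested on simulated data. Protein sequences were not used here, so the planned search for ER retention signals was not run.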

Additional observations from a re-analysis of the deposited data

How the results depend on the processing

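No paired analysis was possible because all 3 libraries belong to 1 condition. Causes of the changes were not tested. The planned search for C-terminal retention signals was not run, since no protein sequences were used here. Across the fits that each left out a replicate, 22 to 23 members were expressed, 8 were high, 57 to 59 of the further genes were expressed, the median of the members was 2.38 to 2.54 TPM, their median percentile 25.1 to 26.6 and their share of TPM 0.205% to 0.265%. The medians by role then ran from 2.03 to 2.19 TPM (chaperones), 2.51 to 2.91 (isomerases), 4.95 to 7.54 (degradation), 3.36 to 4.09 (sensors and factors) and 3.88 to 5.27 (translocation). Apart from degradation, medians by role carry the limit given above for genes without counts on the canonical transcript. Neighbouring pairs without overlap numbered 5 with all replicates, 6 to 12 with a replicate left out, where ranges rest on fewer samples, and 12 without replicate 3, the highest. They numbered 9 with mitochondrial genes left out.

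The threshold moved the counts most. With a mean TPM of at least 10, 12 members were expressed and 3 high, and with a mean above 0, 14 were high. Among protein-coding genes only, 5 were high. The median percentile of the members among expressed genes, 25.6, became 33.8 in CPM, 34.3 with TMM scaling, 34.2 with median-of-ratios scaling, 32.8 with mitochondrial genes left out, 62.3 with a mean above 0, 0 with a mean of at least 10 and 18.7 among protein-coding genes. With mitochondrial genes left out, the median of the members was 3.48 TPM, their share 0.308%, and the medians by role were 2.98 (chaperones), 3.85 (isomerases), 9.78 (degradation), 5.205 (sensors and factors) and 6.96 TPM (translocation). On the leading transcript alone, the median was 1.92 TPM, with 1.30 TPM for chaperones and 3.44 TPM for degradation. With 1 mismatch in CCACG, an ERSE was found in 12 members, against 7. The share of protein-coding promoters with it was then 1.36%, against 0.124%. ERSE-II was found in 3 members. XBP1 had 5.84 TPM without replicate 3, against 9.52, and SDF2L1 had 1042 TPM, against 819. The values of members under about 10 counts rest on few reads, and why their counts were low was not tested.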
